A study of Mus musculus with 16 samples.

Results

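The RANKL, OPG and RANK axis was examined through 6 of the 36829 features listed for every mouse. They were picked by gene symbol, with earlier results of these data known. Among them are the ligand Tnfsf11 (RANKL), its decoy receptor Tnfrsf11b (OPG) and the receptor Tnfrsf11a (RANK). The others are the macrophage growth factor Csf1 and the intracellular mediators Traf6 and Nfatc1. All 6 were listed once and all had a mean over the 16 mice of 0.5 RPKM or more, the lower limit for testing, as did 16973 features in total. RPKM is the number of reads on a gene scaled to the length of the gene and to the total reads of the library, so levels can be set side by side between genes. Comparisons of the groups are differences in log2(RPKM + 0.1), HLU minus control.

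RANKL is made in bone by osteocytes, osteoblasts, stromal cells and lymphocytes, and it binds RANK on osteoclast precursors. RANK recruits the adaptor TRAF6, which leads through NF-kB, MAP kinases and calcium signalling to NFATc1, the transcription factor that drives osteoclast differentiation. OPG is secreted by cells of the osteoblast lineage and captures RANKL before it reaches RANK, and M-CSF, the product of Csf1, keeps osteoclast precursors alive and dividing. The balance of RANKL and OPG is the usual measure of how strongly bone supports osteoclasts, and hindlimb unloading, in which the tail is suspended so that the hind legs bear no weight, is a model of bone loss through disuse.

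Cortical bone of the femur came from 11-week-old female C57Bl/6 mice, 8 after 7 days of hindlimb unloading (HLU 1 to 8) and 8 controls with normal weightbearing (Control 1 to 8). The bone ends had been cut away and the marrow flushed, and each mouse gave 1 library. The labels name no transgene and no agent. The replicates are separate mice, and p-values describe the spread between them.

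The number of reads by which RPKM had been divided was inferred from steps in the values. It ranged from 7067512 in Control 2 to 21363584 in HLU 6, with a median of 16194394. Bone markers were abundant, with osteocyte markers (8 genes) summing to between 188 and 617 RPKM in control mice and between 274 and 625 RPKM in HLU mice. Granulocyte markers, from blood or remaining marrow, summed to between 17700 and 38000 RPKM in controls and between 12500 and 44800 RPKM in HLU (9 of 12 genes listed), and erythroid markers to between 3150 and 8830 and between 1720 and 4600 RPKM (12 of 12 listed). No marker of these lists that was listed stood at 0 in all mice. On the log2 scale the erythroid score was 0.59 lower in HLU (p = 0.065), the B cell score 0.44 lower (p = 0.138), the T cell score 0.39 lower (p = 0.0976) and the osteocyte score 0.42 higher (p = 0.11), by two-sided exact permutation tests. These scores had the largest differences of the 11 scores computed, and their p-values were not adjusted. The other scores differed by between -0.15 (chondrocyte) and 0.16 (endothelium), with granulocyte at -0.13 (exact permutation p = 0.61). None of 9 skeletal muscle markers was listed under its own symbol, so muscle could not be checked.

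The genes lie apart from each other in the genome. In GENCODE M21 (GRCm38) Tnfsf11 spans chr14:78277445-78308043 on the minus strand, Tnfrsf11b chr15:54250619-54278484 (minus), Tnfrsf11a chr1:105780718-105847981 (plus), Csf1 chr3:107741048-107760469 (minus) and Traf6 chr2:101678429-101701669 (plus). These are positions in that annotation, whereas the submitters' notes name mm9. None of these 5 genes overlaps another annotated gene.

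Promoter sequences are shown for Tnfsf11 and Tnfrsf11a, the ligand and receptor whose levels moved together across mice. RefSeq (GRCm38.p6) gave promoters for 4 of the 6 members, Tnfsf11, Tnfrsf11a, Csf1 and Traf6, and not for Tnfrsf11b and Nfatc1. The windows are the 250 bases before the start of transcription in RefSeq, which for Tnfrsf11a lies 5 bases inside the GENCODE gene, chr14:78308044-78308293 on the minus strand for Tnfsf11 and chr1:105780473-105780722 on the plus strand for Tnfrsf11a. Capitals mark matches on either strand to the TATA core TATAA, the box CCAAT, the Sp1 box GGGCGG, the Runx site TGTGGT, the NFAT core GGAAA or the AP-1 site TGANTCA.
Tnfsf11: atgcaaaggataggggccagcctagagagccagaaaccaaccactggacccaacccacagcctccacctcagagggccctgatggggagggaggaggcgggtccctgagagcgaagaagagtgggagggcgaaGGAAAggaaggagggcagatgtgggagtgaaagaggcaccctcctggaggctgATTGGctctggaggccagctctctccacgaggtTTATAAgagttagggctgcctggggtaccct
Tnfrsf11a: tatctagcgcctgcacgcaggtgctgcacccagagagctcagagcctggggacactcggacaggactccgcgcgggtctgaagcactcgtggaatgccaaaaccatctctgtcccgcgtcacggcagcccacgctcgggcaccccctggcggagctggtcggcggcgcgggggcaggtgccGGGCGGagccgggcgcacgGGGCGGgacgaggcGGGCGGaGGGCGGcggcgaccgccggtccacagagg
The Tnfsf11 window has a GC content of 60.4% and holds 1 stretch that matches TATAA on both strands, at overlapping positions, with 1 CCAAT match and 1 NFAT core. The Tnfrsf11a window has a GC content of 73.6% and holds 4 GGGCGG matches and no other of these motifs. Of 32851 promoter windows of the same length, 22.78% hold TATAA, 33.85% CCAAT, 32.74% GGGCGG, 14.05% TGTGGT, 55.57% GGAAA and 6.75% TGANTCA. Csf1 holds 2 GGGCGG and 3 GGAAA matches, and Traf6 holds 2 GGGCGG matches and 1 TGTGGT match. The windows of Tnfsf11 and Tnfrsf11a share none of the 6 motifs.

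Neither the ligand nor its decoy receptor passed the test after 7 days of unloading. Tnfsf11 ranged from 2.43 to 5.29 RPKM in control mice (median 3.28) and from 2.68 to 4.95 RPKM in HLU mice (median 3.85). The groups overlapped throughout, since no HLU mouse lay above the highest or below the lowest control. Mean Tnfsf11 was 3.45 ± 0.985 RPKM in controls and 3.79 ± 0.885 in HLU (SD, n = 8 each), a log2 difference of 0.14 (SE 0.18, limma adjusted p = 0.844). The exact permutation test gave p = 0.44 and a 95% interval from 0.841-fold to 1.44-fold. Because the RNA of all cells in a piece of cortical bone was measured together, fewer cells of a type and less RNA per cell cannot be told apart here or below.

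Tnfrsf11b varied most of the 6. Control mice ranged from 2.41 to 8.47 RPKM (median 5.41) and HLU mice from 3.17 to 9.59 RPKM (median 6.28). Control 1 and Control 2 were the lowest of all mice, at 2.41 and 2.56 RPKM, and HLU 2 was next at 3.17 RPKM, whereas HLU 4 was the only HLU mouse above every control. Mean Tnfrsf11b was 5.36 ± 2.27 RPKM in controls and 6.43 ± 1.95 in HLU (SD, n = 8 each). The log2 difference of 0.32 (SE 0.27) had a limma adjusted p of 0.767, and the exact permutation test gave p = 0.288 with an interval from 0.809-fold to 1.93-fold.

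**Figure D1:**
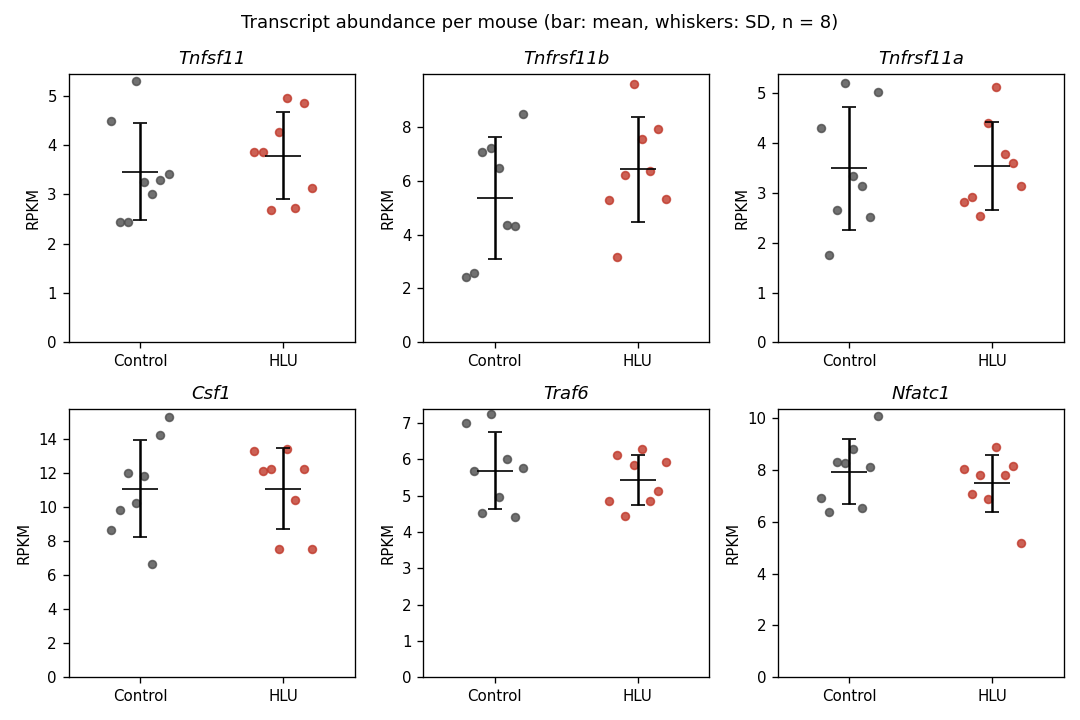
RPKM (vertical axes, from 0) of the 6 genes in each of 8 control and 8 HLU mice (points), with the group mean (bar) and SD (whiskers). The groups overlap for every gene, and Tnfrsf11b spreads most, from 2.41 to 9.59 RPKM.

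The ratio of Tnfsf11 to Tnfrsf11b was computed in each mouse, in which the size of the library cancels. In control mice the ratio was 1.86, 0.955, 0.343, 0.734, 0.503, 0.691, 0.763 and 0.404 for Control 1 to 8, and in HLU mice it was 0.73, 1.21, 0.432, 0.444, 0.655, 0.429, 0.613 and 0.589 for HLU 1 to 8. OPG transcripts per length thus exceeded RANKL transcripts in 7 of 8 mice of each group, and 1 mouse in each group lay above a ratio of 1. The mean was 0.782 ± 0.482 in controls and 0.638 ± 0.258 in HLU (SD, n = 8 each), with medians of 0.713 and 0.601. The log2 difference was -0.18, with p = 0.585 by the two-sided exact permutation test, and the ratio of 6 of 8 HLU mice was under the median control ratio. Its 95% interval, from 0.541-fold to 1.42-fold, holds both a fall and a rise.

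Control 1 decided the sign of this difference. Without that mouse the log2 difference was 0.022 (exact permutation p = 0.936). In a separate setting, with all mice kept and erythroid and granulocyte scores as covariates, the log2 difference was -0.48, a value with no test. Control 1 combined the lowest Tnfrsf11b of all mice with a Tnfsf11 of 4.49 RPKM, and its Tnfsf11 was not the highest of its group. Counting error alone gave each mouse's log2 ratio a standard error of 0.13 to 0.30 (median 0.17), below the SD between mice of 0.77 in controls and 0.50 in HLU. Within groups the log2 SD of Tnfrsf11b was 0.60 and that of Tnfsf11 was 0.37, beside 0.65 for the ratio.

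**Figure D2:**
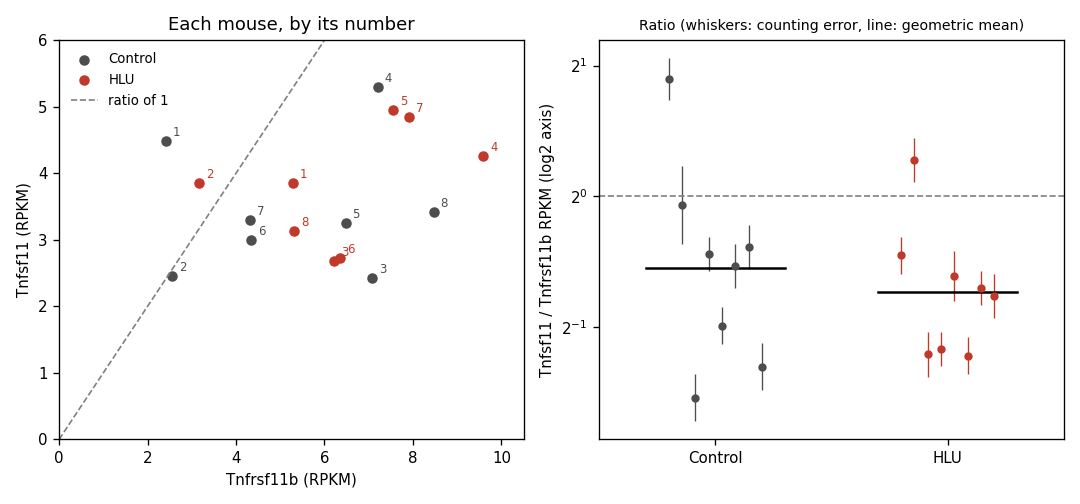
Left, Tnfsf11 against Tnfrsf11b in RPKM for each mouse, numbered by replicate, with a dashed line at a ratio of 1. Right, the ratio per mouse on a log2 axis, with whiskers for 1 counting standard error and a line at the group's geometric mean, where Control 1 (1.86) and HLU 2 (1.21) stand above the other mice of their groups.

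The receptor and the growth factor had nearly equal means in both groups. Tnfrsf11a ranged from 1.75 to 5.21 RPKM in control mice (median 3.25) and from 2.53 to 5.13 RPKM in HLU mice (median 3.38). Its means were 3.5 ± 1.24 and 3.54 ± 0.88 RPKM (SD, n = 8 each), a log2 difference of 0.064 (SE 0.21, limma adjusted p = 0.943; exact permutation p = 0.773, interval 0.754-fold to 1.45-fold). Csf1 ranged from 6.64 to 15.3 RPKM in control mice (median 11) and from 7.5 to 13.4 RPKM in HLU mice (median 12.1). Every HLU value of Csf1 lay inside the control range. Its means were 11.1 ± 2.86 and 11.1 ± 2.38 RPKM (SD, n = 8 each), a log2 difference of 0.0099 (SE 0.18, limma adjusted p = 0.988; exact permutation p = 0.951, interval 0.767-fold to 1.32-fold).

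The intracellular mediators varied least and did not pass the test. Traf6, the adaptor of RANK, ranged from 4.4 to 7.24 RPKM in control mice (median 5.71) and from 4.44 to 6.28 RPKM in HLU mice (median 5.49). All HLU values of Traf6 lay inside the control range. Its means were 5.69 ± 1.06 and 5.43 ± 0.694 RPKM (SD, n = 8 each), a log2 difference of -0.056 (SE 0.12, limma adjusted p = 0.912; exact permutation p = 0.623, interval 0.813-fold to 1.14-fold). Nfatc1, which lies at chr18:80606205-80713071 on the minus strand (GRCm38), overlaps the antisense transcript AC123818.1, and without strand the reads of both cannot be told apart. Nfatc1 ranged from 6.39 to 10.1 RPKM in control mice (median 8.2) and from 5.19 to 8.9 RPKM in HLU mice (median 7.79). HLU 8 lay below every control, and 1 of 8 HLU mice exceeded the median of the controls. Its means were 7.93 ± 1.26 and 7.48 ± 1.12 RPKM (SD, n = 8 each), a log2 difference of -0.083 (SE 0.12, limma adjusted p = 0.867; exact permutation p = 0.492, interval 0.795-fold to 1.11-fold).

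Of the 6 members, 0 were called higher and 0 lower at an unadjusted p under 0.05 with a change of at least 1.2-fold. Over all 16973 features tested, limma called 188 higher (1.11%) and 808 lower (4.76%) by that rule, so that counts of 0 among 6 genes are near the background. At an adjusted p under 0.1 with 1.2-fold, limma called 0% of all features, none of the members among them. At an unadjusted p under 0.05 and any fold there were 1049 features, and voom on recovered reads also called 0 at the adjusted threshold. The median log2 difference of all features was -0.10, and relative to it the differences of Traf6 and Nfatc1 were above the median (0.036 and 0.0094 after median-of-ratios rescaling).

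Within a mouse the 6 genes kept a partly fixed order of abundance. The order was taken from the medians of these same mice. The p-values therefore describe only how steady each difference was from mouse to mouse, which a constant bias between genes would also give. Csf1 was highest (median 11.9 RPKM over the 16 mice), above Nfatc1 (7.91 RPKM) in 16 of 16 mice (exact sign-flip permutation test, adjusted p = 7.63e-05 over 5 neighbouring pairs). Nfatc1 lay above Tnfrsf11b (6.28 RPKM) in 14 of 16 mice (adjusted p = 0.00259, same exact test), 8 of 8 controls and 6 of 8 HLU. Tnfrsf11b and Traf6 (5.71 RPKM) did not differ beyond their spread, with Tnfrsf11b higher in 9 of 16 mice (adjusted p = 0.979, exact). That was so in 3 of 8 controls and 6 of 8 HLU mice, a split between the groups that was not tested. Traf6 lay above Tnfsf11 (3.36 RPKM) in 16 of 16 mice (adjusted p = 7.63e-05, exact). Tnfsf11 and Tnfrsf11a (3.25 RPKM) did not differ beyond their spread, each being higher in 8 of 16 mice (adjusted p = 0.566, exact). Tnfsf11 stood at percentile 43.4 and Csf1 at percentile 76.6 of the features that passed the filter. The reads behind these values ranged from 41 to 210 per mouse for Tnfsf11, from 51 to 442 for Tnfrsf11b and from 62 to 438 for Tnfrsf11a, and were at least 350 for the other members.

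Covariation was measured over the 16 mice after removing the group means, for all 15 pairs of members, with p by permutation of mice within groups and Benjamini-Hochberg adjustment over the pairs. In 2 of the 15 pairs the adjusted p of r was under 0.05. Csf1 and Nfatc1 rose and fell together (r = 0.82, adjusted permutation p = 0.0024; rho = 0.72, adjusted p = 0.0283). Their r was 0.82 within controls, 0.81 within HLU and 0.85 without the 2 mice farthest from the median of Csf1. Tnfsf11 and Tnfrsf11a, ligand and receptor, also moved together (r = 0.72, adjusted permutation p = 0.0256; rho = 0.71, adjusted p = 0.0283), with r = 0.81 within controls, 0.58 within HLU and 0.60 without the 2 mice farthest from the median of Tnfsf11. This second relation lost its call without Control 4 (r = 0.64), without HLU 3 (r = 0.69) and without HLU 5 (r = 0.68), and also without the 2 smallest libraries, Control 2 and HLU 5 (r = 0.62, adjusted permutation p = 0.101).

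RANKL and OPG transcripts had an r of 0.16 with each other (rho = 0.094, adjusted permutation p = 0.656 and 0.837). Traf6 had an r of 0.65 with Tnfsf11 (adjusted permutation p = 0.0525; rho = 0.65, adjusted p = 0.0481), which fell to 0.45 without 2 mice. Tnfrsf11b had an r of 0.59 with Nfatc1 (adjusted permutation p = 0.0824), 0.85 within controls and 0.26 within HLU, and the difference between the groups was not tested. Tnfrsf11a had an r of 0.58 with Traf6 (adjusted permutation p = 0.104), with a rho of 0.65 (adjusted permutation p = 0.0493). With Tnfrsf11b the r of Tnfrsf11a was 0.52 (adjusted permutation p = 0.162), and 0.80 without Control 1 and HLU 2. Csf1 and Traf6 had the lowest r, -0.44 (adjusted permutation p = 0.223). With the size of the library the members and the ratio had r between -0.19 and 0.14 (adjusted permutation p = 0.939 for each). Within groups the signs were opposite for some members, with r of 0.58 in controls and -0.49 in HLU for Tnfsf11, 0.55 and -0.56 for Tnfrsf11a and 0.13 and -0.60 for Traf6, differences that were not tested.

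**Figure D3:**
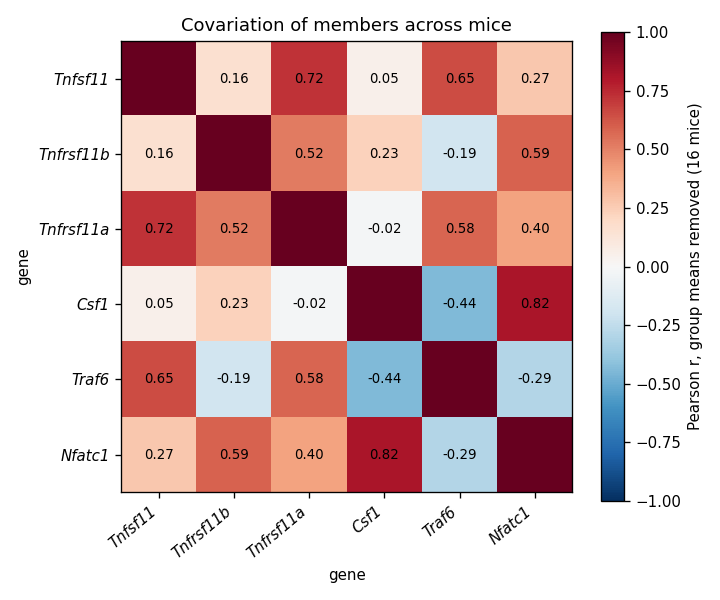
Pearson r of each pair of the 6 genes over 16 mice, on log2(RPKM + 0.1) with group means removed (colour scale from -1 to 1). The highest values are Csf1 with Nfatc1 (0.82) and Tnfsf11 with Tnfrsf11a (0.72), and Tnfsf11 with Tnfrsf11b is 0.16.

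The decoy receptor followed the osteocyte markers, and the ligand did not pass that test. Each member and the ratio were set against 11 marker scores, the mean centred log2 abundance of each cell type's marker genes, in 77 relations adjusted together. Tnfrsf11b had an r of 0.89 with the osteocyte score (adjusted permutation p = 0.00462; rho = 0.80, adjusted p = 0.0118), 0.95 within controls, 0.80 within HLU and 0.82 without Control 1 and HLU 2. Within controls Tnfrsf11b also had an r of 0.95 with the osteoblast score, 0.82 with the chondrocyte score and 0.76 with the osteoclast score. Within HLU these were -0.072, -0.13 and -0.16, and over the 16 mice 0.56, 0.45 and 0.36 (adjusted permutation p = 0.198, 0.318 and 0.434). Tnfsf11 had an r of 0.17 with the osteocyte score (rho = 0.19, adjusted permutation p = 0.712 and 0.714). The ratio had an r of -0.73 with the osteocyte score (adjusted permutation p = 0.0328), and rho was -0.58 (adjusted permutation p = 0.168). Its r was -0.84 within controls, -0.49 within HLU and -0.58 without Control 1 and Control 3. Within controls the ratio also had an r of -0.87 with the chondrocyte score and -0.82 with the osteoblast score, beside 0.36 and 0.42 within HLU. Tnfrsf11b is the denominator of the ratio, so this relation is not separate from that of Tnfrsf11b. The mice with the highest ratios, Control 1, HLU 2 and Control 2, were those with the lowest osteocyte scores, at -0.91, -0.63 and -0.92 log2 units. Tnfrsf11b also had an r of -0.69 with the granulocyte score (adjusted permutation p = 0.00704; rho = -0.69, adjusted p = 0.0259). The parts that the osteocyte and blood cell content of the samples had in these levels were not tested separately.

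The 8 genes of the osteocyte score are given singly as a description of that relation, since they make up the score. The r of Tnfrsf11b over the 16 mice was 0.91 with Dmp1 (rho = 0.82), a matrix protein of osteocytes, 0.89 with Pdpn (rho = 0.91), a marker of early osteocytes, and 0.85 with Irx5 (rho = 0.81). It was 0.80 with Ackr3 (rho = 0.63), 0.68 with Sost (rho = 0.59), the gene of the Wnt inhibitor sclerostin, 0.60 with Phex (rho = 0.54) and 0.57 with Mepe (rho = 0.48). With Fgf23, the phosphate-regulating hormone, it was 0.25 (rho = 0.33). The adjusted permutation p of r for Tnfrsf11b was 0.0662 with Phex, 0.0769 with Mepe and 0.599 with Fgf23, and under 0.05 with the others. By rho the adjusted permutation p was above 0.05 with Sost (0.11) and Ackr3 (0.0577) as well. The r of Tnfsf11 with these 8 genes lay between -0.14 and 0.55.

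**Figure D4:**
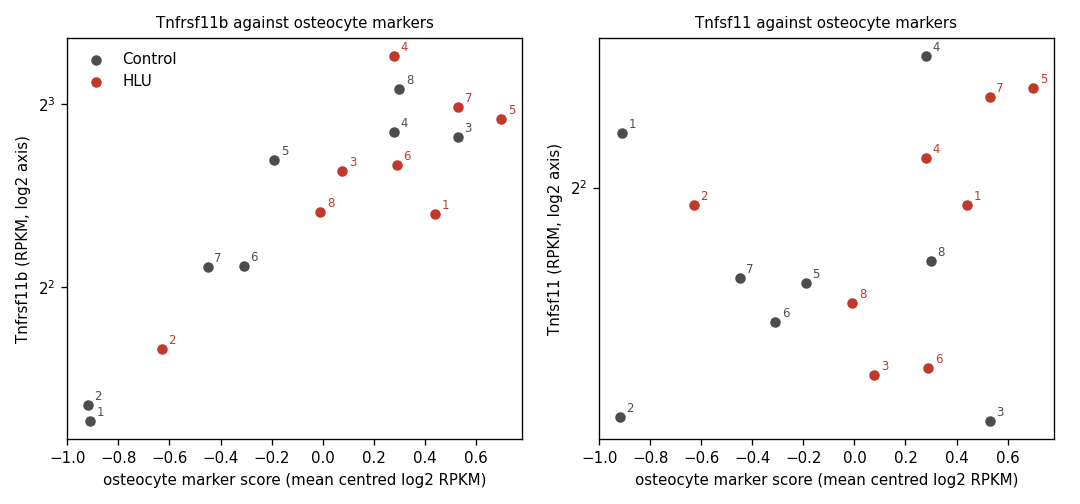
Tnfrsf11b (left) and Tnfsf11 (right) in RPKM on a log2 axis against the osteocyte marker score, in log2 units, of 8 control and 8 HLU mice numbered by replicate. Tnfrsf11b rises with the score (r = 0.89 within groups) and Tnfsf11 has r = 0.17.

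Csf1 and Nfatc1 went with scores of several cell types. With the osteocyte score Nfatc1 had an r of 0.63 (adjusted permutation p = 0.0875) and a rho of 0.75 (adjusted permutation p = 0.0252). Nfatc1 had an r of 0.79 with the osteoblast score, 0.78 with the osteoclast score, 0.77 with the endothelial score and 0.77 with the chondrocyte score (adjusted permutation p = 0.00704 for each; rho from 0.79 to 0.88). Csf1 had an r of 0.78 with the endothelial score (adjusted permutation p = 0.00704; rho = 0.77), 0.70 with the osteoblast score (adjusted permutation p = 0.0372; rho = 0.72, adjusted p = 0.0259), 0.70 with the chondrocyte score (adjusted permutation p = 0.034; rho = 0.64, adjusted p = 0.0794) and 0.66 with the macrophage score (adjusted permutation p = 0.0416; rho = 0.69), the last falling to 0.40 without 2 mice. Tnfrsf11a, the receptor, had an r of 0.51 with the osteoclast score (adjusted permutation p = 0.229; rho = 0.39, adjusted p = 0.44). The chondrocyte score rests on 3 of 7 genes. No score passed for Tnfsf11, Tnfrsf11a or Traf6.

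The features whose log2 levels were most like those of the ligand and the decoy receptor were ranked by Pearson r over the 16 mice, group means included, among 15759 features with a unique symbol. Those nearest to Tnfsf11 were Tlr3 (r = 0.86), a receptor of double-stranded RNA, Ash1l (0.86), a histone methyltransferase, the immunoglobulin gene segment Igkv6-32 (0.82), Cask (0.82) and Tnfsf10 (0.82), the TRAIL ligand. Those nearest to Tnfrsf11b were Sybu (0.92), the Wnt ligand gene Wnt5a (0.91), Pdpn (0.90), the homeobox gene Mkx (0.89) and the junctional adhesion molecule gene Jam3 (0.89). These r values are the highest of many and carry no test. Wnt5a was low, at 0.87 ± 0.4 RPKM in controls and 1.07 ± 0.473 in HLU (SD, n = 8 each).

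Around the 6 members, 129 other genes of the pathway were listed by role. In that list 124 could be found under their symbols or an older one, and 114 were abundant enough to test. Of these, 1 was higher and 3 were lower at an unadjusted p under 0.05 with 1.2-fold, and 0 passed the adjusted threshold in limma. These are 0.877% and 2.63% of the 114 genes, below the 1.11% and 4.76% over all features. The median log2 difference was -0.095, with 35 genes above 0 and 79 below, beside -0.10 over all features, of which 5450 were above 0 and 11523 below.

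Among ligands and cytokines (9 genes tested) none was called, and the median was 0.027. Il34, the other ligand of the M-CSF receptor, ranged from 0.469 to 4.68 RPKM in controls (median 1.88) and from 0.741 to 2.34 in HLU (median 1.39), and its log2 difference was -0.13. Tnf, an inflammatory ligand, had means of 1.5 ± 0.215 and 1.59 ± 0.523 RPKM and Tnfsf10 of 3.36 ± 1.04 and 3.4 ± 0.552 RPKM (SD, n = 8 each), with log2 differences of 0.027 and 0.049. Among receptors and their ITAM partners (11 genes) 1 was called lower. Itgb3, the beta3 integrin subunit of osteoclasts and platelets, ranged from 79.4 to 125 RPKM in controls (median 96.1) and from 50.1 to 106 in HLU (median 69.2), a log2 difference of -0.46 (limma p = 0.0121, adjusted p = 0.744, exact permutation p = 0.0171). Csf1r, the M-CSF receptor, differed by -0.10 (24.4 ± 4.07 and 23 ± 5.14 RPKM), Lgr4, a further receptor of RANKL, by 0.18 (5.19 ± 1.72 and 5.94 ± 1.97 RPKM), and the ITAM adaptor Tyrobp by -0.19 (224 ± 80.3 and 203 ± 84.9 RPKM).

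Among adaptors and kinases (26 genes) 1 was called lower. Tec, a tyrosine kinase that acts below RANK and ITAM receptors, ranged from 4.99 to 7.71 RPKM in controls (median 6.03) and from 3.58 to 6.57 in HLU (median 5.14), a log2 difference of -0.29 (limma p = 0.0323, adjusted p = 0.744, exact permutation p = 0.0236). Traf2, Traf3 and Traf5, relatives of Traf6, differed by -0.28, 0.0016 and -0.19. For Traf2 none of 8 HLU mice exceeded the median of the controls, 3.43 RPKM, and its limma adjusted p was 0.764. Of 12 NF-kB genes none was called and 11 lay below 0, as did 67.9% of all features, and their median of -0.13 stood beside -0.10 over all features. Chuk, Ikbkb and Ikbkg, the subunits of the IkB kinase, stood at -0.19, -0.13 and -0.045.

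Among calcium, AP-1 and other transcription factor genes (15 tested) 1 was called higher. Ppp3ca, the catalytic subunit of calcineurin, which dephosphorylates NFAT proteins, ranged from 17.1 to 32.1 RPKM in controls (median 23.8) and from 25.7 to 38.2 in HLU (median 27.5). All 8 HLU mice exceeded the median of the controls, and the log2 difference was 0.31 (limma p = 0.0245, adjusted p = 0.744, exact permutation p = 0.0193). Fos, Fosl2 and Jun, of the AP-1 complex, differed by -0.022, -0.12 and 0.032. Of 12 brakes on osteoclast formation none was called, with Irf8 at -0.31 (exact permutation p = 0.122) and Bcl6 at 0.14.

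Among osteoclast targets (12 genes) 1 was called lower. Car2, a carbonic anhydrase that osteoclasts need to acidify bone and that red cells also make, ranged from 726 to 1480 RPKM in controls (median 886) and from 295 to 1090 in HLU (median 564), a log2 difference of -0.65 (limma p = 0.0293, adjusted p = 0.744, exact permutation p = 0.0418). The erythroid score was 0.59 lower in HLU, and its part in the Car2 value was not tested. The other named targets lay on both sides of 0, with Acp5 (tartrate-resistant acid phosphatase) at -0.12, Ctsk (cathepsin K) at 0.26 and the fusion gene Dcstamp at 0.064. Of 18 genes that act upstream of Tnfsf11 and Tnfrsf11b none was called, with the vitamin D receptor Vdr at -0.078, the parathyroid hormone receptor Pth1r at -0.04 and Il6st, the shared receptor of the IL-6 family, at 0.18 (exact permutation p = 0.0803). Sost, chosen here after its value was seen, had the largest difference of this role, 0.59 (68.9 ± 39.8 and 93.4 ± 28 RPKM, SD, n = 8 each; limma adjusted p = 0.744). It is also an osteocyte marker, and the part of the osteocyte score, 0.42 higher in HLU, in this value was not tested.

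**Figure D5:**
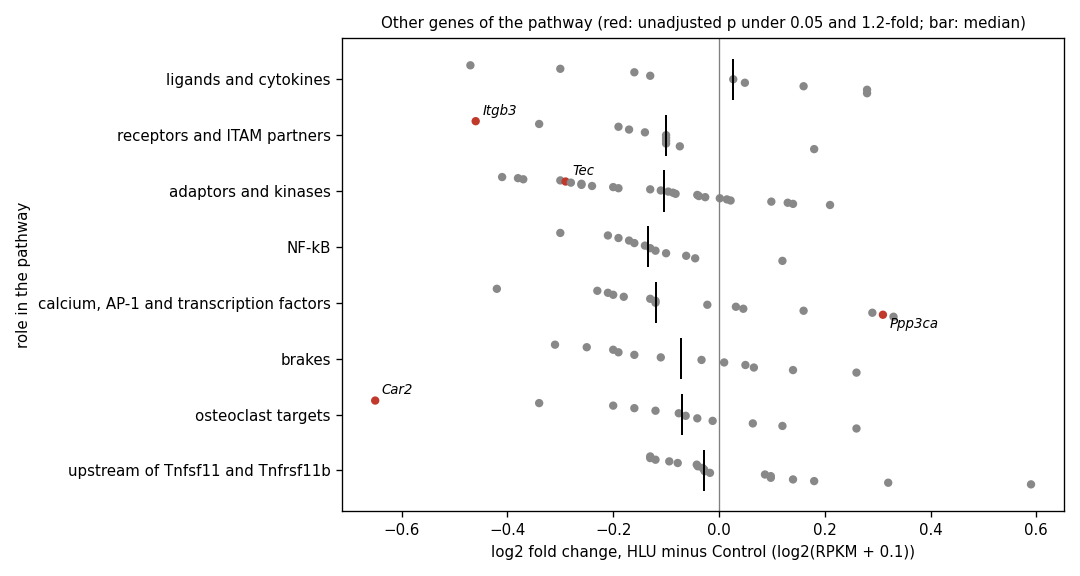
Log2 difference, HLU minus control, of the 114 tested pathway genes, by role (points), with the median of each role (bar). The 4 genes at an unadjusted p under 0.05 with 1.2-fold are red and named, from Car2 at -0.65 to Ppp3ca at 0.31, and none passed the adjusted threshold.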

How the data were processed

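Polyadenylated RNA of 16 bones was sequenced, 8 libraries per lane. According to the labels and the study's methods the authors aligned reads with TopHat2, and the submitters' notes also name mm9 and DESeq2. The counting tool, annotation and gene lengths are not given in the sources used here. The deposited values carry no unit in the files. They were taken as RPKM made by the authors before they were deposited, gene reads scaled to length and library size. The reason is that 1 divisor per library and 1 fitted length per feature turned the values of features kept into whole reads. Annotated exon lengths served only to start the search for the divisors. The comparison of levels between genes rests on RPKM being the unit. RPKM does not correct for composition. Reads recovered from RPKM steps were whole (tolerance 0.02) for 100.00% of features kept. The symbol Rnf135 is carried by 3887 features, so some genes cannot be looked up.

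Log2(RPKM + 0.1) was compared with limma 3.58.1 (R 4.3.3), with a variance trend and Benjamini-Hochberg adjustment over 16973 features, checked on simulated data. The study's count test was not used, since the deposited unit is not counts, and voom on the recovered reads was an alternative. Exact permutation tests of the groups over all 16 mice used all 12870 divisions of the mice (smallest p 0.000155), with intervals by inverting the test. Tests with a mouse left out used the divisions of the remaining mice. The exact tests of order flipped the sign of the difference within each mouse, and their lowest unadjusted p was 3.05e-05. Correlations used permutations within groups. P-values for the marker score relations, and the r and p-values of single osteocyte markers, were added after values had been seen. So was the setting without the 2 smallest libraries. Members and gene lists were chosen with earlier results of these data known. Named pathway genes are the first 3 tested in each role and any at an unadjusted p under 0.05 with 1.2-fold, and for Tnfsf11 and Tnfrsf11b the 5 features most like them. The values of 1 gene that this rule names are not reported here. Alternatives were other pseudocounts, filters and scalings, a replicate block, no variance trend, blood cell scores as covariates, voom and each mouse left out. Numpy 2.4.6, scipy 1.17.1, pandas 2.3.3 and matplotlib 3.10.9 were used in Python 3.11.15.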

Additional observations from a re-analysis of the deposited data

Results flagged for a closer look

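In each group 1 mouse had a ratio of Tnfsf11 to Tnfrsf11b far above the others by Dixon's test for an extreme value at the 95% level: Control 1 at 1.86, with the next control at 0.955, and HLU 2 at 1.21, with the next HLU mouse at 0.73. On the log2 scale neither mouse was past that limit, the gap being 0.394 of the range in controls and 0.49 in HLU. Chance gives such a value in about 1 of 20 groups, and 14 groups were tested. Both mice had low Tnfrsf11b (2.41 and 3.17 RPKM) and low osteocyte scores (-0.91 and -0.63), and in neither was Tnfsf11 the highest of its group.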

How the results depend on the processing

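No member passed the adjusted threshold under any of the alternatives, the lowest adjusted p being 0.244 (Traf6, blood cell scores as covariates). With blood cell scores the differences of Tnfsf11 and Tnfrsf11a became -0.058 and -0.11, Csf1 0.19, Traf6 -0.23 and the log2 ratio -0.48. Without the 2 smallest libraries Tnfsf11 became 0.019, Tnfrsf11b 0.15, Tnfrsf11a -0.14 and Csf1 -0.053. Traf6 became 0.036 and Nfatc1 0.0094 with median-of-ratios rescaling, and 0.065 and 0.04 with quantile normalization. Features called at the adjusted threshold numbered 1 without a filter, 1 without a variance trend and 21 with blood cell scores. The pathway genes called at an unadjusted p numbered 17 with blood cell scores in place of 4, or 14.9% of the list beside 18.3% of all features under that setting. The pairs of members called numbered 4 with blood cell scores removed, and 1 without the 2 smallest libraries, in place of 2. The causes were not tested.

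Leaving out each mouse in turn gave differences of Tnfsf11 from 0.076 to 0.23, of Tnfrsf11b from 0.18 to 0.45, of Tnfrsf11a from -0.062 to 0.16, of Csf1 from -0.088 to 0.084, of Traf6 from -0.1 to -0.004, of Nfatc1 from -0.12 to -0.011 and of the log2 ratio from -0.33 to 0.022. It gave 0 to 1 features at the adjusted threshold (1 without HLU 2), 1 to 8 pathway genes (1 without Control 7 or HLU 4, 2 without Control 6, HLU 1 or HLU 7, 7 without Control 3, 8 without HLU 2) and 1 to 4 pairs of members (1 without Control 4, HLU 3 or HLU 5, 4 without Control 2, HLU 2 or HLU 8).
Over all features, same-numbered mice had correlations from -0.166 to 0.51 and only number 4 matched its own best. Such correlations cannot settle whether replicate numbers pair the mice. With a replicate block Tnfrsf11b differed by 0.32 (adjusted p = 0.725), the ratio by -0.18 (p = 0.477, permutation) and 3 pathway genes were called. For Tnfrsf11b the SE was 0.19 in place of 0.27 and the unadjusted limma p 0.114 in place of 0.258. The SE was 0.15 in place of 0.18 for Tnfsf11 and 0.18 in place of 0.21 for Tnfrsf11a. It was 0.14 in place of 0.12 for Nfatc1, and unchanged for Csf1 and Traf6. Depth limits Tnfsf11 most, at 41 reads in its shallowest library.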
